A study of Homo sapiens with 8 samples.

Results

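The 77 genes described here encode mitochondrial ribosomal proteins. They were chosen by name, as MRPL or MRPS followed by a number, and by at least 10 counts in every library. All 77 names in the table of 78691 genes that fit the pattern met that minimum, and the lowest count of a member in a library was 63. By their place in the ribosome, 51 belong to the large subunit (the MRPL genes, MRPS30 and MRPS18A) and 26 to the small subunit.

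Mitochondrial ribosomes translate the few messenger RNAs made from mitochondrial DNA, which code for core subunits of the respiratory chain and of the ATP synthase. Their RNAs are transcribed inside mitochondria, whereas all of their proteins are encoded in the nucleus, made in the cytosol and imported. Part of these proteins descend from the bacterial ribosome and part were added during the evolution of mitochondria, and MYC is known as an activator of nuclear genes for mitochondrial biogenesis.

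RNA sequencing covered 2 prostate cancer cell lines, each with MYCL (L-MYC, a MYC family transcription factor) at a high and a low level, with 2 replicate libraries in each of the 4 groups. C4-2B, a castration-resistant adenocarcinoma line, carried an empty lentiviral vector (C4-2B control) or a lentivirus that made MYCL from the EF1A promoter together with EGFP (C4-2B MYCL). NCI-H660, a neuroendocrine prostate cancer line, received shRNA against MYCL (H660 shMYCL) or a non-targeting control (H660 shControl). The sources name an adenoviral vector for the knockdown and also cells collected once it was stable, so its duration is not certain. C4-2B replicates are called biological in part of the labels, but separate cultures are not stated elsewhere, so p-values measure the spread between these libraries, which may be technical.

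Libraries held 15177071 to 32344170 counts. MYCL, the gene targeted in both lines, had 12.1 and 14.2 CPM in the C4-2B control libraries and 3733 and 4242 in the C4-2B MYCL libraries. In H660 it had 104 and 81.8 with shControl and 10.3 and 11.99 with shMYCL. CPM is a gene's count relative to its library's total, scaled by TMM factors over the 8 libraries, except that marker genes of cell types are given without TMM factors. All 9 neuroendocrine markers were above 1 CPM in each H660 library, and 1 or 2 of them in each C4-2B library. KLK3, a secreted protein of luminal prostate cells, was at 819 to 1249 CPM in C4-2B and at 0 in H660. The luminal keratins did not follow it, with KRT8 at 394 to 530 CPM in C4-2B and 720.1 to 791 in H660, and KRT18 at 315 to 388 and 308 to 437 CPM. Summed fibroblast markers ran from 10.1 to 18.8 CPM in C4-2B and from 72.3 to 117 CPM in H660, where COL1A2 led, up to 107 CPM, and DCN was at 0 in all 8 libraries. Their part in the results below was not tested.

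Promoter sequences of RefSeq (GRCh38.p14) were matched for 69 of the 77 genes. Each covers 250 bases before and 50 after the transcription start. The 250 bases before the start are shown for the gene with the largest fall under MYCL (MRPL50), the one with the largest rise under shMYCL (MRPL58) and the one with the largest gap between the lines (MRPL41). Capitals mark matches to CCGGAAG, the core bound by ETS factors such as GABPA, or to CCAAT, the box bound by NF-Y, on either strand.
MRPL50 (chr9:101398619-101398868, minus strand): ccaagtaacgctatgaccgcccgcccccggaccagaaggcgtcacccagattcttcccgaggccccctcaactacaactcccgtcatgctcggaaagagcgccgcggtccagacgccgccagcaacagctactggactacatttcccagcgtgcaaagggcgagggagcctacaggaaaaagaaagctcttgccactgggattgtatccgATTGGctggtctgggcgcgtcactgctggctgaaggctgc
MRPL58 (chr17:75012420-75012669, plus strand): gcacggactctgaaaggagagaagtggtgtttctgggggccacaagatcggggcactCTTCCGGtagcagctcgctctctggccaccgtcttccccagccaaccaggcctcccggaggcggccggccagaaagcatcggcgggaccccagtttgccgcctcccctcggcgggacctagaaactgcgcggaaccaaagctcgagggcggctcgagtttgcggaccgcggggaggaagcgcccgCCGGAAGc
MRPL41 (chr9:137551629-137551878, plus strand): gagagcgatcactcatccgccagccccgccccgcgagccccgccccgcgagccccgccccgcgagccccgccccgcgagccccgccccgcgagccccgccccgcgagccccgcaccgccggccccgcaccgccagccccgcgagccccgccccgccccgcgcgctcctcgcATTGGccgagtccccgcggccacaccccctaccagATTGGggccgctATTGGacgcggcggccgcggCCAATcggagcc

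Over the whole 300-base windows, on both strands, CCGGAAG occurred in 30 of the 69 members (43.5%) and in 10.3% of all 35116 promoters in the RefSeq table. AAGATGGCG, the core bound by YY1, occurred in 13 members (18.8%) and in 1.75% of all promoters. The E-box CACGTG, to which MYC-MAX dimers bind, occurred in 9 members (13%) and in 7.26% of all promoters. GCGCATGC, part of the palindrome bound by NRF1, occurred in 6 members (8.7%) and in 3.05% of all, and CCAAT in 23 members (33.3%) and in 34.6% of all. The ETS and YY1 motifs can share letters, and in the members they did not. A match is a string of letters, and no binding was measured here.

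All 77 genes were expressed in every library at no less than 12.2 TPM, the level relative to the library's total that accounts for gene length. The median TPM over the 8 libraries ranged from 19.998 for MRPL50 to 264 for MRPL33, with a middle value of 73.1. The lowest after MRPL50 were MRPS31 (23.8), MRPL35 (30.1) and MRPL46 (31.2). Below MRPL33, the highest were MRPL20 (188), MRPL51 (185) and MRPL3 (174). In MRPL33, which encodes a small protein of the large subunit, TPM was 453 and 453 in C4-2B control, 405 and 423 in C4-2B MYCL, 111 and 109.7 in H660 shControl and 122 and 105 in H660 shMYCL, so its place at the top came from C4-2B. MRPL50 stayed between 15.7 and 29.0 TPM in every library. Together the 77 genes took 0.573% and 0.588% of all counts in C4-2B control, 0.498% and 0.518% in C4-2B MYCL, 0.308% and 0.311% in H660 shControl, and 0.312% and 0.321% in H660 shMYCL. The shares in the 2 MYCL libraries lay below both C4-2B controls, and all 4 H660 libraries lay far below C4-2B.

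**Figure D1:**
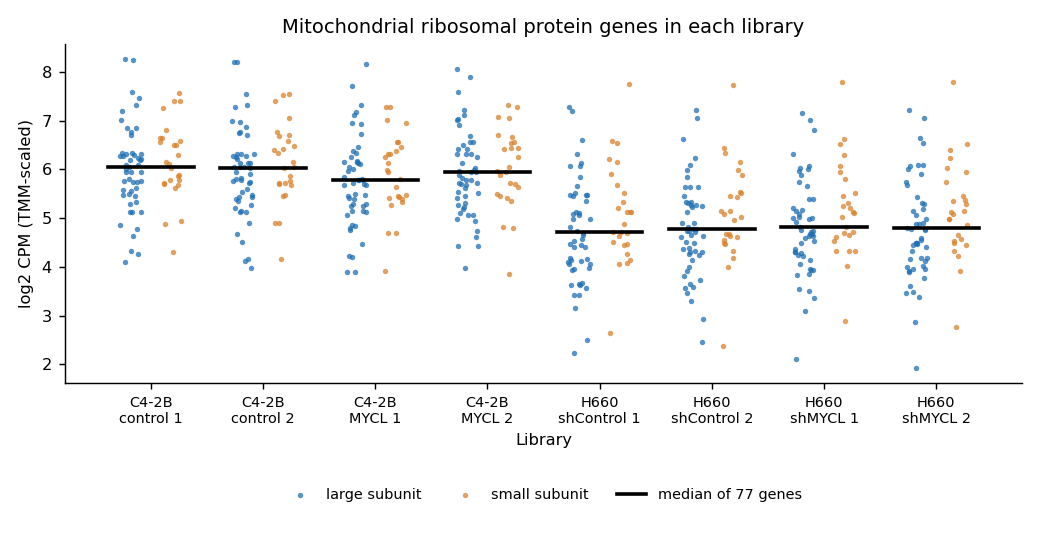
Each point is 1 of the 77 genes in 1 library, on a log2 scale of TMM-scaled CPM, with large-subunit genes left and small-subunit genes right of each library's centre. Black bars mark the median, which lies at 6.04 and 6.02 in C4-2B control, 5.79 and 5.94 in C4-2B MYCL, and between 4.71 and 4.82 in the H660 libraries.

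The comparison of H660 shControl with C4-2B control asks how the genes differ between a neuroendocrine and an adenocarcinoma line. The lineage, the line itself, its culture and its control vector cannot be told apart in this comparison. Of the 77 genes, 65 were lower in H660 (84.4%, against 37.3% of the 19605 genes tested) and 2 were higher (2.6%, against 40.5%) (edgeR's quasi-likelihood test, with calls where the adjusted p was below 0.05). The median log2 fold change was -1.04, a median fold of 0.485, against 0.03 for all genes. With a further limit of 0.5 on the absolute log2 fold change, 60 were lower, against 33.3% of all genes. In bulk RNA, fewer cells of a type and less RNA per cell cannot be told apart.

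Both subunits were low in H660, 45 of 51 large-subunit and 20 of 26 small-subunit genes passing in that direction, with medians of -1.11 and -0.96. The largest gap was in MRPL41, a large-subunit protein without a bacterial counterpart. It had 80.2 and 79.1 CPM in C4-2B control against 5.65 and 7.61 in H660 shControl, a log2 fold change of -3.58 ± 0.14 (SE, adjusted p = 5.33e-11). MRPS12, a protein of the decoding centre of the small subunit, had 50.9 and 52.3 CPM against 6.27 and 5.21 (-3.17 ± 0.14, adjusted p = 9.4e-11). In both genes the 2 lines were separated by far more than the replicates. MRPL36, a short zinc-binding protein of the large subunit, followed with -2.94 ± 0.14, and MRPL33 with -2.66 ± 0.11. In all, 11 members were lower by a log2 fold change of 2 or more and 42 by 1 or more. Below -1.9 lay 19.5% of the members and 15.1% of all genes tested, so gaps that large were not particular to the members.

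The other end of the order held few genes. MRPL13 had 79.2 and 79.5 CPM in C4-2B control and 97.0 and 98.7 in H660 shControl (0.30 ± 0.08, adjusted p = 0.00508). MRPS16 had 190.1 and 187 CPM against 217 and 212 (0.19 ± 0.08, adjusted p = 0.0419). MRPS6 (0.18 ± 0.13, adjusted p = 0.208) and MRPS28 (0.08 ± 0.09, adjusted p = 0.419) did not pass. Neighbours near 0 in this order did not differ from each other beyond their errors. The levels of 68 members (88.3%) did not overlap between the 2 control groups and were lower in H660, against 43.5% of all genes.

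**Figure D2:**
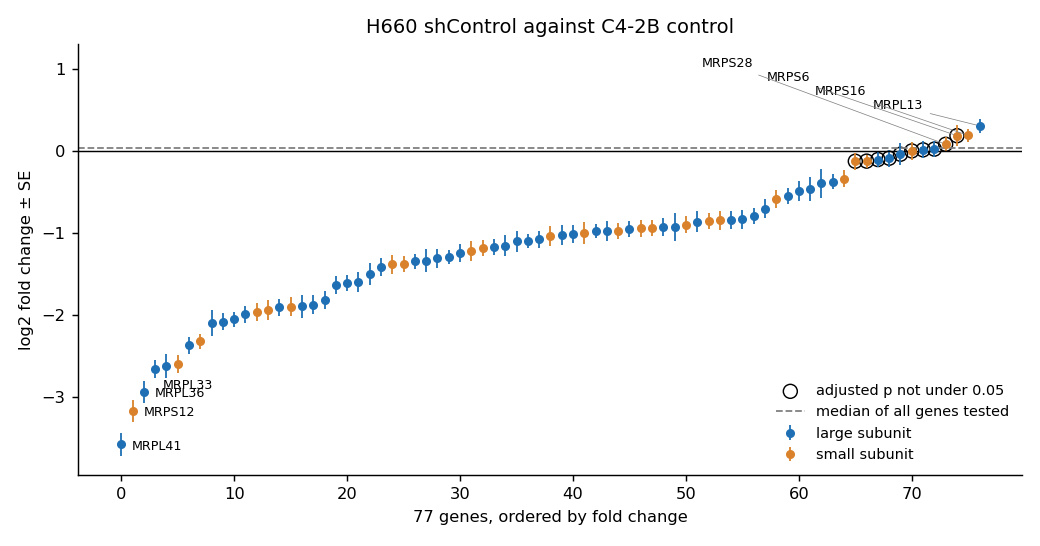
Log2 fold change of H660 shControl against C4-2B control for each of the 77 genes, ordered from lowest to highest, with standard errors from the fit of all 8 libraries. Large-subunit genes are blue and small-subunit genes orange, black circles mark the 10 genes whose adjusted p was not under 0.05, and the dashed line is the median of all genes tested (0.03). The interquartile range runs from -1.64 to -0.71, with MRPL41 at -3.58 and MRPL13 at 0.30.

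Measures of the libraries moved with this gap. Genes of the mitochondrial chromosome took 9.63% to 10.7% of counts in C4-2B and 3.50% to 3.83% in H660. With them left out, 65 members were still lower, against 37.3% of all genes. The scale mattered more. On log2(TPM + 1), limma called 49 members lower, against 23.2% of all genes, and 12 higher, against 53.5%. Their median was -0.48 while that of all genes was 0.52, so the members stood below other genes by about as much as on counts. The H660 shControl and C4-2B control libraries used here also enter the comparisons within each line. With each library centred on its median, 67 were lower, against 43.8% of all genes. The members are short genes, and fold changes of all genes rose with gene length (rho = 0.17 across 19123 genes, which are not independent). After removal of each library's trend with length, chosen after seeing the data, 59 members were lower and 9 higher, with a median of -0.67. Of all genes, 38.8% were lower and 38.9% higher in that setting.

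MYCL overexpression in C4-2B was compared with the empty vector. Under MYCL, 24 of the 77 genes fell (31.2%, against 17.4% of the 16866 genes tested) and 1, MRPL10, rose (1.3%, against 17.6%). The median log2 fold change was -0.15, or -9.68%, against -0.00 for all genes. The changes were small. The 24 ran from -0.64 to -0.28, and of these only MRPL50 also moved by 0.5 or more on the log2 scale, a limit under which 8.12% of all genes were called lower. The levels of 44 members (57.1%) were lower in both MYCL libraries than in both controls, against 35.4% of all genes, and those of 6 (7.79%) were higher, against 34.1%.

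MRPL50, a large-subunit protein without a bacterial counterpart, had 78.9 and 79.3 CPM in control and 51.5 and 49.2 CPM under MYCL, a change of -36.05% (-0.64 ± 0.08, adjusted p = 0.000378). Its 2 groups lay far apart for their narrow spread. MRPL32, whose precursor is cut by the m-AAA protease before assembly, had 67.8 and 66.1 CPM against 45.2 and 51.0 (-0.47 ± 0.09, adjusted p = 0.00294). MRPL35 had 54.1 and 55.1 CPM against 39.1 and 39.4 (-0.47 ± 0.08, adjusted p = 0.00216). In the small subunit the largest fall was in MRPS7, a protein of the head, from 100.2 and 103 CPM to 70.2 and 76.3 (-0.47 ± 0.08, adjusted p = 0.00185). MRPL3, which lies near the peptidyl transferase centre and is among the most abundant members, also fell (-0.42 ± 0.08, adjusted p = 0.00334), as did MRPL46 of the central protuberance (-0.42 ± 0.09, adjusted p = 0.00766) and MRPS12 (-0.29 ± 0.09, adjusted p = 0.0373).

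MRPL10, part of the stalk that recruits translation factors, went the other way. It had 61.4 and 59.9 CPM in control and 69.4 and 79.2 under MYCL (0.30 ± 0.09, adjusted p = 0.0252). That call was lost in the fit of all 8 libraries (adjusted p = 0.0601), without control replicate 1 (0.104) or 2 (0.134) and without MYCL replicate 2 (0.0947). On log2(TPM + 1) the value was 0.15 (adjusted p = 0.155 with limma). The next highest values, in MRPL2 (0.27 ± 0.11, adjusted p = 0.0787), MRPL55 (0.25 ± 0.15, adjusted p = 0.245) and MRPS18A (0.23 ± 0.09, adjusted p = 0.088), did not pass. MRPL12, the partner of MRPL10 in the stalk, had 79.8 and 77.8 CPM against 64.2 and 76.6 and was not called.

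Both subunits took part, with 16 of 51 large-subunit and 8 of 26 small-subunit genes lower and medians of -0.16 and -0.13. Members numbered within the bacterial series (MRPL up to 36, MRPS up to 21) were lower in 19 of 44 cases, and those with higher numbers, most of them particular to mitochondria, in 5 of 33. These are 43.2% and 15.2%, the second near the 17.4% of all genes, and the difference between the groups, with medians of -0.16 and -0.11, was not tested. The 2 MYCL libraries were not alike. The median of the members was -0.062 without MYCL replicate 1 and -0.23 without MYCL replicate 2. The number of lower genes fell without control replicate 1 and rose without MYCL replicate 2. Summed markers of leukocytes, nearly all CD68, stood at 11.4 and 14.3 CPM in control and 33.3 and 36.2 CPM under MYCL, and their part in the result was not tested.

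**Figure D3:**
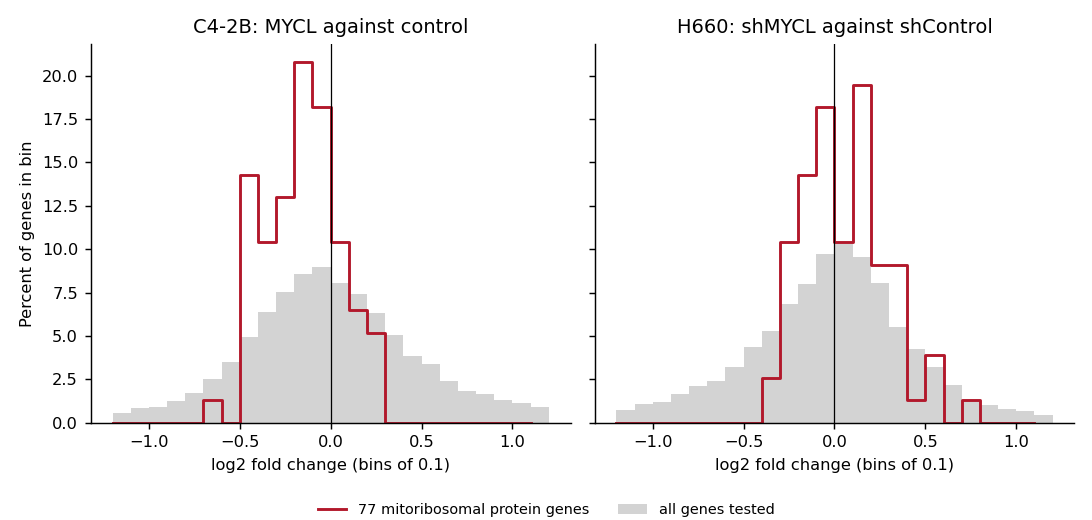
Distribution of log2 fold changes in bins of 0.1, as percent of the 77 genes (red line) and of all genes tested (grey bars), for C4-2B MYCL against control on the left and H660 shMYCL against shControl on the right. In C4-2B the members' median is -0.15 and 60 of 77 lie below 0, whereas in H660 the median is 0.06 with 42 above 0.

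Knockdown of MYCL in H660 was compared with the control shRNA. Here 7 of the 77 genes rose (9.09%, against 12% of the 16980 genes tested) and 1 fell (1.3%, against 12.7%). The share that rose was near that of all genes, and the median log2 fold change was 0.06 against -0.00. With a change of 0.5 or more on the log2 scale, 4 were higher, against 7.18% of all genes, and 0 lower, against 8.99%. On log2(TPM + 1), limma called 3 higher, against 5.65% of all genes, and 0 lower, against 6.11%. The levels of 27 members (35.1%) were higher in both shMYCL libraries than in both controls, against 31.3% of all genes, and those of 17 (22.1%) were lower, against 31.8%.

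The largest rise was in MRPL58, a peptidyl-tRNA hydrolase that became a structural protein of the large subunit. It had 12.6 and 9.80 CPM with shControl and 19.7 and 18.05 with shMYCL (0.75 ± 0.16, adjusted p = 0.00268). MRPS15, an rRNA-binding protein of the small subunit, had 26.02 and 22.4 CPM against 36.9 and 35.5 (0.58 ± 0.13, adjusted p = 0.00345). MRPL37 had 45.5 and 43.9 CPM against 65.4 and 64.1 (0.53 ± 0.11, adjusted p = 0.00223), and its groups were tight. MRPL49 had 57.1 and 63.2 CPM against 79.3 and 93.0 (0.51 ± 0.11, adjusted p = 0.00416), and on log2(TPM + 1) its rise was 0.25 (adjusted p = 0.15 with limma). MRPL54 (0.45 ± 0.15, adjusted p = 0.034), MRPL9 (0.34 ± 0.11, adjusted p = 0.037) and MRPS10 (0.34 ± 0.10, adjusted p = 0.0256) rose less.

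The gene that fell was MRPL24, a protein near the exit of the nascent peptide tunnel, from 34.9 and 37.98 CPM to 26.9 and 29.6 (-0.37 ± 0.12, adjusted p = 0.0368). DESeq2 did not call it (adjusted p = 0.0854), and without shMYCL replicate 1 its adjusted p was 0.339. MRPL36 (-0.34 ± 0.25, adjusted p = 0.359), MRPL1 (-0.29 ± 0.12, adjusted p = 0.0866) and MRPS17 (-0.29 ± 0.12, adjusted p = 0.0993) followed without passing. The number of higher genes fell without either shMYCL library and rose without shControl replicate 2, so it rests on single libraries. The median of the members was 0.0079 without shMYCL replicate 1 and 0.082 without shMYCL replicate 2. The summed neuroendocrine markers were 1844 and 1728 CPM with shControl and 1269.9 and 1344 CPM with shMYCL, and their part in the result was not tested.

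**Figure D4:**
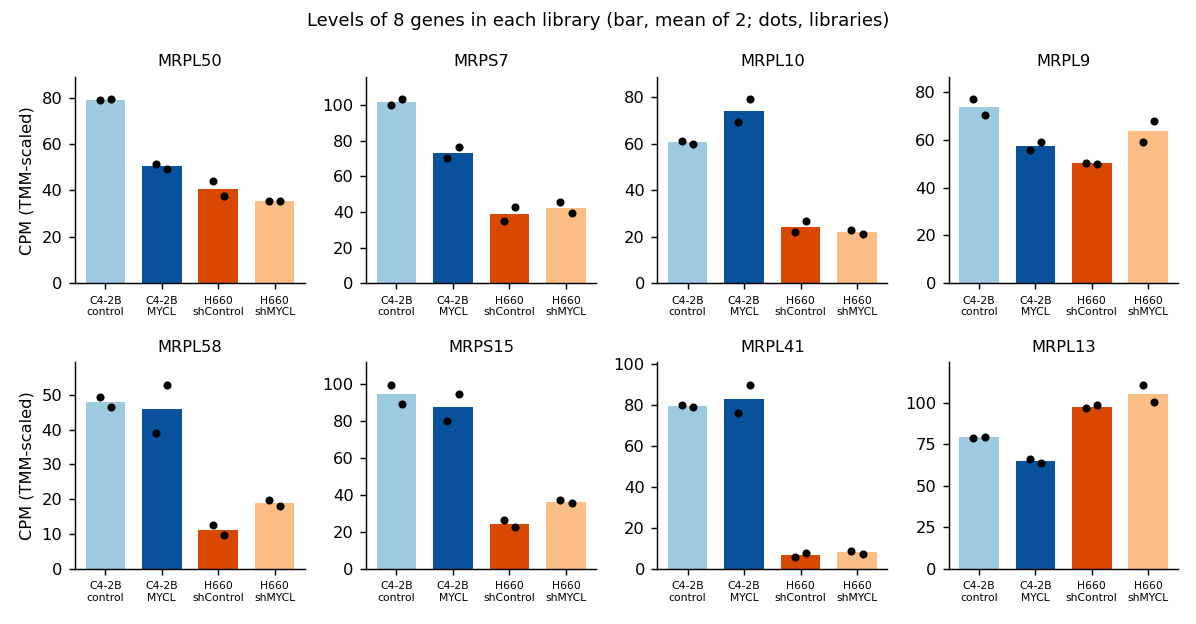
TMM-scaled CPM of 8 genes in the 4 groups, with bars for the mean of 2 libraries and dots for the libraries. MRPL50 and MRPS7 are lower and MRPL10 higher in C4-2B MYCL than in C4-2B control, MRPL9, MRPL58 and MRPS15 are higher in H660 shMYCL than in H660 shControl, and MRPL41 and MRPL13 mark the extremes between the lines.

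Read across the 2 lines, 45 genes passed in neither comparison and MRPL9 was the member that passed in both. MRPL9, a protein at the base of the L1 stalk region, fell under MYCL in C4-2B, from 77.05 and 70.4 CPM to 55.8 and 58.9 (-0.36 ± 0.08, adjusted p = 0.00933), and rose under shMYCL in H660, from 50.4 and 49.98 to 59.3 and 67.9. Its level was thus lower where MYCL was higher in each line. Of its exon bases, 30.5% overlap a gene on the opposite strand, and whether counting used the strand is not given in the sources used here. DESeq2 gave an adjusted p of 0.0516 for the rise, and without shMYCL replicate 2 it was 0.408 with edgeR.

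The response to MYCL was then set side by side in both lines, as C4-2B MYCL minus control less H660 shControl minus shMYCL. Overexpression against knockdown, the vectors and the lines cannot be told apart in this difference. Of the 77 genes, 11 had a lower effect in C4-2B (14.3%, against 9.63% of the 19605 genes tested) and 3 a higher one (3.9%, against 10.6%). Leaving out single libraries moved these counts. The lower count fell most without C4-2B MYCL replicate 1, where the higher count rose. The higher count fell most without C4-2B control replicate 1. The median difference ran from -0.17 without C4-2B MYCL replicate 2 to -0.034 without C4-2B MYCL replicate 1. By 0.5 or more on the log2 scale, 7 had a lower effect (8.33% of all genes) and 1 a higher one (9.59%). The 2 lines enter this difference with all of their libraries, so it is not independent of the comparisons above. The lowest differences were in MRPL50 (-0.85 ± 0.14, adjusted p = 0.00112), MRPL36 (-0.74 ± 0.21, adjusted p = 0.0233), MRPL1 (-0.72 ± 0.15, adjusted p = 0.0046) and MRPS17 (-0.70 ± 0.15, adjusted p = 0.00506). These 4 had lower values in both treated groups, C4-2B MYCL and H660 shMYCL, than in the control of the line. MRPL36, for example, had 40.0 and 38.7 CPM in C4-2B control, 28.0 and 31.5 in C4-2B MYCL, 4.70 and 5.51 in H660 shControl, and 4.30 and 3.81 in H660 shMYCL, the last at few counts. At the other end were MRPL58 (0.70 ± 0.22, adjusted p = 0.0388), MRPL54 (0.50 ± 0.25, adjusted p = 0.182), MRPS10 (0.47 ± 0.11, adjusted p = 0.0114) and MRPS15 (0.47 ± 0.16, adjusted p = 0.0551). MRPS10 had 78.2 and 80.8 CPM in C4-2B control, 87.3 and 86.9 under MYCL, 74.0 and 71.5 with shControl, and 91.8 and 92.1 with shMYCL, above its control in each line.

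**Figure D5:**
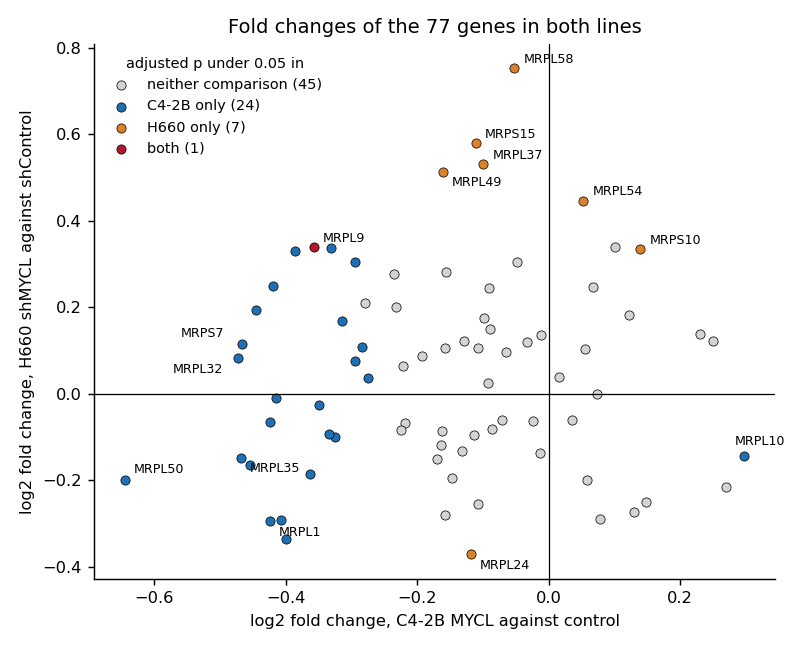
Log2 fold change under MYCL in C4-2B (x axis) and under shMYCL in H660 (y axis) for the 77 genes, coloured by the comparison in which the adjusted p was under 0.05. The 24 genes called in C4-2B alone spread over both signs in H660, the 7 called in H660 alone lie between -0.16 and 0.14 in C4-2B, and MRPL9 is the 1 gene called in both.

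Of 9 members picked for their place in the ribosome, 8 were lower in H660 and MRPS18B did not pass. In this comparison 84.4% of the 77 members and 37.3% of all genes were lower. The paralogs MRPS18A, MRPS18B and MRPS18C are homologs of a single bacterial protein, the first located in the large subunit and the others in the small subunit. MRPS18A had 68.3 and 66.0 CPM in C4-2B control and 23.9 and 26.3 in H660 shControl (-1.42 ± 0.11, adjusted p = 4.14e-08). MRPS18C had 54.9 and 44.5 CPM against 24.9 and 24.6 (-1.01 ± 0.13, adjusted p = 1.24e-05). MRPS18B had 96.0 and 104 CPM against 95.9 and 86.8, the nearest libraries of the 2 groups being almost equal (-0.13 ± 0.10, adjusted p = 0.259). Antisense genes cover 50.9% of the exon bases of MRPS18A and 40.2% of those of MRPS18C, and counts of paralogs can depend on how shared reads were assigned.

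The stalk proteins MRPL10 (-1.31 ± 0.11) and MRPL12 (-1.82 ± 0.11) and MRPL45, which contacts the inner membrane (-1.60 ± 0.12), were all lower in H660. MRPL12 shares 69.5% of its exon bases with a gene on the same strand, so its level is less certain. MRPL58 was lower as well (-2.10 ± 0.16). MRPS30, a large-subunit protein despite its name, had 43.99 and 42.2 CPM against 34.4 and 27.2 (-0.49 ± 0.12, adjusted p = 0.00248). On log2(TPM + 1), where all genes shifted upward, its value was 0.11. With each library centred on its median it was -0.64 (adjusted p = 0.0028 with limma).

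The wider machinery of mitochondrial translation was read from lists made with earlier results of these data known. Between the lines, 15 of 17 translation factors, 19 of 22 aminoacyl-tRNA synthetases and associated amidotransferase subunits, 19 of 27 assembly and rRNA modification factors, and both mitochondrial rRNAs were lower in H660, with medians of -1.44, -0.85, -0.71 and -1.70, where 37.3% of all genes were lower. For the rRNAs, counts from poly(A)-selected RNA may not follow their levels. The 5 mitoribosomal proteins with other names, DAP3 among them, were all lower, with a median of -0.67. Of 13 genes for mitochondrial transcription and its regulators, 7 were lower (53.8%) and 4 higher (30.8%, against 40.5% of all genes).

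In C4-2B under MYCL, 8 of the 13 transcription genes fell. TFAM, which packages and transcribes mitochondrial DNA, had 124 and 119 CPM in control and 73.0 and 71.2 under MYCL (-0.75 ± 0.07, adjusted p = 0.000155), and the coactivator PPARGC1B fell too (-0.79 ± 0.12, adjusted p = 0.00121). Among assembly factors, 12 of 27 fell and 3 rose, with the GTPase MTG1 lowest (-0.89 ± 0.11, adjusted p = 0.000575) and the rRNA methyltransferase TFB1M highest (0.58 ± 0.12, adjusted p = 0.00497). Among synthetases, 7 of 22 fell, led by MARS2 for methionine (-1.04 ± 0.09, adjusted p = 6.73e-05) and LARS2 for leucine (-0.90 ± 0.08), and GARS1 rose (0.41 ± 0.12, adjusted p = 0.0256). Of 17 translation factors, 6 fell, the release factor MTRF1L most (-0.64 ± 0.14, adjusted p = 0.00791). The background of genes called lower in this comparison was 17.4%.

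In H660 under shMYCL, where 12% of all genes were higher and 12.7% lower, 2 of 17 translation factors were higher and 1 lower, 2 of 27 assembly factors higher and 1 lower, 1 of 22 synthetases higher and 1 lower, and 2 of 13 transcription genes higher and 1 lower. GABPB1, a subunit of the GABP factor that binds ETS motifs, had 88.0 and 79.3 CPM with shControl and 138 and 142 with shMYCL (0.74 ± 0.11, adjusted p = 0.000132). PPRC1 (0.64 ± 0.12, adjusted p = 0.00146), MRM3 (0.58 ± 0.19, adjusted p = 0.0372) and MTRF1L (0.46 ± 0.11, adjusted p = 0.00719) also rose. PPARGC1B fell (-0.67 ± 0.20, adjusted p = 0.0213), as did IARS2 (-0.48 ± 0.11, adjusted p = 0.00405). Because the RNA was poly(A)-selected, counts of the mitochondrial rRNAs also depend on their capture in that step, which was not measured. Of these rRNAs, MT-RNR2 of the large subunit passed in neither line (0.12 ± 0.08, adjusted p = 0.243 under MYCL, and -0.27 ± 0.10, adjusted p = 0.0696 under shMYCL). MT-RNR1, the rRNA of the small subunit, fell in both treated groups. It had 2938 and 2967 CPM in C4-2B control and 1586 and 2167 under MYCL (-0.65 ± 0.12, adjusted p = 0.00381), and 785 and 939 with shControl against 543 and 385 with shMYCL (-0.90 ± 0.14, adjusted p = 0.000344).

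MYC itself moved in these comparisons. It had 153 and 149 CPM in C4-2B control and 101 and 119.9 under MYCL (-0.44 ± 0.09, adjusted p = 0.00481). In H660 it had 13.1 and 17.4 CPM with shControl and 29.0 and 23.7 with shMYCL (0.78 ± 0.16, adjusted p = 0.00198), and between the lines it was lower in H660 (-3.30 ± 0.14, adjusted p = 9.6e-11). MYCN was at 0 counts in all 4 C4-2B libraries and at 24 to 53 counts in H660. The part of MYC in the levels of the 77 genes was not tested.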

How the data were processed

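Poly(A)-selected RNA of 8 libraries was sequenced with paired ends. The estimated counts per gene were deposited by the authors without normalization between libraries, and 20.5% of the members' values were not whole (tolerance 0.01). They were rounded before testing. The TPM values were deposited by the authors as counts divided by gene length and scaled per library, and the count per TPM of a gene varied between libraries by more than a log2 range of 0.1 in 42 of the 77 genes. Per the labels, the build was hg38. The aligner and the counting tool are not given in the sources used here.

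Counts were fitted over all genes with edgeR 4.0.16 (R 4.3.3) by TMM, filterByExpr and the quasi-likelihood test, each line alone for the MYCL comparisons and all 8 libraries for comparisons between lines. Adjusted p-values are Benjamini-Hochberg over all genes tested, and genes were called under 0.05. Standard errors came from the fold change and the test statistic. Scripts were tested on simulated data. Alternatives used DESeq2 1.42.0, limma 3.58.1 on log2(TPM + 1) or, with a smaller pseudocount, log2(TPM + 0.1), keeping genes that reached 1 TPM in 2 libraries, other filters, scalings and size factors, GC or length trends removed, and each library left out. Gene positions and overlaps came from GENCODE 44, which held all 77 members.

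The members and lists were chosen with earlier results of these data known. Named genes were the 4 at each end of each comparison and of TPM, members called in both lines, members fixed for their place in the ribosome, the ends of each list, and the MYC family. Replicate libraries differed beyond sampling noise (chi-square per degree of freedom 4.81 to 13.0), so each counted as 1 sample. Part of the marker results is not reported here.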

Additional observations from a re-analysis of the deposited data

Results flagged for a closer look

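For 14 of the 77 genes the response to high against low MYCL differed between C4-2B and H660. This was by the interaction term of the edgeR fit of all 8 libraries, at an adjusted p under 0.05. Overexpression was set against knockdown with other vectors, so neither these nor the lines can be told apart. The value is the log2 fold change of MYCL over control in C4-2B less that of shControl over shMYCL in H660. Called below 0 were 14.3% of the members, against 9.63% of the 19605 genes tested, and above 0 were 3.9%, against 10.6%. It was below 0 in 11 genes: MRPL50 (-0.85), MRPL36 (-0.74), MRPL1 (-0.72), MRPS17 (-0.70), MRPL27 (-0.62), MRPL35 (-0.62), MRPL15 (-0.55), MRPL24 (-0.49), MRPL3 (-0.49), MRPL19 (-0.44) and MRPL18 (-0.43). It was above 0 in 3 genes: MRPL37 (0.43), MRPS10 (0.47) and MRPL58 (0.70). Of the 11, 9 had fallen in C4-2B without a call in H660, MRPL24 had fallen in H660 without a call in C4-2B, and MRPL19 was called in neither line.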

How the results depend on the processing

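Of the counts and medians over the 77 genes, 161 values under other settings stayed close to the reported ones and 84 moved. Where a change of 0.5 on the log2 scale was also required, C4-2B had 1 lower and 0 higher genes, H660 4 higher and 0 lower, the gap between the lines 0 higher, and the difference in response 7 lower and 1 higher. In the same order, the shares of all genes were 8.12% and 11.8%, 7.18% and 8.99%, 36.5%, and 8.33% and 9.59%. On log2(TPM + 1), log2(TPM + 0.1) or log2(TPM + 1) without a filter, limma gave in C4-2B 46 lower under either pseudocount, 0 higher and a median of -0.27. Of all genes, 25.9% were lower and 10.5% higher on log2(TPM + 1), and 25.3% and 10.1% on log2(TPM + 0.1). In H660 it gave 3 higher (0 without a filter) and 0 lower, between the lines 12 higher and a median of -0.48, and for the difference in response 0 higher and a median of -0.19. On log2(TPM + 1) with the filter, 5.65% of all genes were higher and 6.11% lower in H660. Between the lines 53.5% were higher, and for the difference 6.2%. With libraries centred on their medians it gave 4 higher in H660, 0 higher and a median of -1.22 between the lines, and 1 higher for the difference. Of all genes, 5.97%, 31.3% and 8.05% were higher in these. The fit of all 8 libraries had 0 higher in C4-2B (against 14.2% of all genes), and DESeq2 had 0 lower in H660 (against 8.95%). Removing the GC trend gave 2 higher in C4-2B (against 17.7% of all genes), 1 higher between the lines (against 39.9%) and 5 higher for the difference (against 12%). Removing the length trend, chosen after seeing the data, gave 0 lower (against 13.3% of all genes) and a median of 0.12 in H660. Between the lines it gave 9 higher (against 38.9%) and a median of -0.67. Without the count filter, or with the 4 control libraries alone, 1 was higher between the lines, against 21.7% and 41.4% of all genes. With at least 10 counts required, 5 were higher for the difference, against 16.2%. The cause of these shifts was not tested.

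Leaving out 1 library at a time gave 12 to 34 lower and 0 to 5 higher in C4-2B with medians from -0.23 to -0.062, and 3 to 13 higher and 0 to 3 lower in H660 with medians from 0.0079 to 0.082. Between the lines it gave 62 to 65 lower and 1 to 2 higher with medians from -1.11 to -0.9998, and for the difference 4 to 11 lower and 0 to 7 higher with medians from -0.17 to -0.034. The lone sample left in a group was assumed to vary like the others.

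Some single genes changed sign. In C4-2B, MRPL55 was at -0.073 on log2(TPM + 1), with or without a filter, at -0.075 on log2(TPM + 0.1) and at -0.016 without MYCL replicate 2. Between the lines, MRPS28 was at -0.042 with centred libraries and MRPS30 at 0.11 on each uncentred log2(TPM) scale. MRPS18B was at 0.47 on log2(TPM + 1), 0.48 on log2(TPM + 0.1) and 0.061 with the length trend removed. On the uncentred scales all genes shifted upward, and with centred libraries MRPS30 was at -0.64.

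Same-numbered libraries did not deviate together, with correlations from -0.01 to 0.03, so the replicate numbers pair nothing. With the replicate number as a block, 24 were lower and 1 higher in C4-2B, 8 higher and 1 lower in H660, 65 lower and 1 higher between the lines, and 11 lower and 2 higher for the difference. In the same order, the shares of all genes were 18% and 18.6%, 13.3% and 14.3%, 37% and 40.2%, and 9.28% and 10.2%. With 2 libraries a group, small changes that did not pass could not be told from the spread.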

Other observations

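Of the 6 members above 0 between the lines, 3 were all of the members on chromosome 8, MRPL13, MRPL15 and MRPS28, a pattern chosen after the values were seen. The 285 genes tested from MRPL15 to MRPL13 on chromosome 8 had a median log2 fold change of 1.22 in H660 shControl against C4-2B control, and 68.1% of them were higher and 16.5% lower. The 703 genes tested on the whole chromosome had a median of 0.56. On chromosome 6 the genes tested had a median of 0.70 while its 6 members had a median of -0.55. On chromosome 22 the genes had a median of -0.74, and its member MRPL40 was at -2.37. DNA copy number was not measured here, and its part was not tested.

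The members with and without each promoter motif are given as a description. The 9 members with CACGTG had a median log2 fold change of -0.13 under MYCL in C4-2B, and the 60 without it -0.16. In H660 under shMYCL the medians were 0.28 and 0.05, and between the lines -1.60 and -1.03. The 30 members with CCGGAAG had medians of -0.13 in C4-2B and -1.07 between the lines, and the 39 without it -0.16 and -1.10. Of the 23 members with CCAAT, 10 fell under MYCL in C4-2B, and of the 46 without it, 11 fell, where 17.4% of all genes fell. With and without CACGTG, 2 of 9 and 19 of 60 fell, and for CCGGAAG 7 of 30 and 14 of 39. For AAGATGGCG the counts were 4 of 13 and 17 of 56, and for GCGCATGC 1 of 6 and 20 of 63. CCAAT had the widest contrast among these motifs, and no such difference was tested.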
